A study of Mus musculus with 30 samples.

Results

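Ionotropic and metabotropic glutamate receptor subunits were examined in 3 pools of motoneurons of the adult mouse spinal cord. The members were the probe sets of an Affymetrix mouse array whose annotation gave a single gene symbol of the AMPA (Gria), kainate (Grik), delta (Grid), NMDA (Grin) or metabotropic (Grm) receptor families. They were 19 of the 12422 probe sets tested and stood for 13 of 8251 genes. AMPA receptors had 8 probe sets for Gria1, Gria2, Gria3 and Gria4. Kainate receptors had 5 for Grik1, Grik2 and Grik5, NMDA receptors had 1 each for Grin2a, Grin2b, Grin2c and Grin2d, and Grid1 and Grm8 had 1 each. Other subunits of these families had no such probe set and were not analysed here. No probe or protein sequence is shown, and no genome coordinates are given.

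Glutamate is the main excitatory transmitter of the spinal cord. Its ionotropic receptors are tetramers: AMPA receptors carry most fast excitation, NMDA receptors need a coagonist and relief from magnesium block, and kainate receptors act on both sides of the synapse. Metabotropic receptors signal through G proteins, and delta receptors bind cerebellins and act largely as synaptic organisers. Motoneurons receive glutamatergic input from descending fibres, interneurons and, in somatic pools, muscle afferents.

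The first pool was laser-captured from the intermediolateral column (IML), which holds autonomic preganglionic motoneurons. The other pools were lateral (LMN) and medial (MMN) somatic motoneurons, called somatic samples where combined. All 3 pools came from each of 5 sham-operated adult mice, with 400 captures per pool and animal. Each RNA was split, amplified and hybridised to 2 arrays, so that 30 arrays gave 15 samples and n is 5 animals per pool. All animals were sham-operated, and strain and sex were not given in the sources used here. Values are log2 intensities, with the 2 arrays of a sample averaged. Brightness differs between probe sets for the same amount of transcript, so each level is given only against the median of its array, and genes are not ranked by abundance. Without detection calls, a dim probe set could not be told from background.

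The pools were checked against a list of motoneuron markers, of which 6 of 11 were measured; Chat and Slc5a7 were not among them. The mean over the 6 ran from 7.85 to 8.41 in IML, from 7.94 to 9.43 in LMN and from 8.21 to 9.03 in MMN. Of the 6, 3 were lower in IML than in somatic samples: Nefh (-0.83), Mmp9 (-0.77) and Ret (-0.34; log2 differences with adjusted p of 0.00105, 0.0145 and 0.0206 in limma). Markers of other cells moved with the pools too: 7 of 12 meningeal and fibroblast markers were higher in IML, with sample means of 9.36 to 10.26 in IML, 8.02 to 9.50 in LMN and 8.53 to 10.24 in MMN. Of the microglia and macrophage markers, 7 of 14 were higher, with sample means of 7.02 to 7.52 in IML, 6.79 to 6.89 in LMN and 6.82 to 7.13 in MMN. Single markers of astrocytes (Fabp7, 1 of 11), oligodendrocytes (Gsn, 1 of 10) and endothelium (Vwf, 1 of 9) were also higher, and none of 4 excitatory or 6 inhibitory interneuron markers was. Over all genes, each by its brightest probe set, 4.00% were called higher and 2.29% lower in this comparison. Lists with 1 call do not stand out from that share. Of the 11 astrocyte markers only 5 had differences above 0, with a median of -0.01. In such captures, fewer cells of a type and less of a marker's transcript in each cell cannot be told apart. Against LMN, 10 of 12 meningeal, 8 of 14 microglia, 3 of 9 endothelial, 2 of 11 astrocyte, 1 of 10 oligodendrocyte and 1 of 6 inhibitory interneuron markers (Gad1) were higher in IML, and 4 of 6 motoneuron markers were lower. Over all genes 6.30% were called higher and 3.84% lower against LMN, and lists with 1 or 2 calls do not stand out from that. No marker was at 0. The part of these markers in the receptor values was not tested. The covariate model given for Gria1 and Grik2 cannot separate it from the pool, since the meningeal and fibroblast mean was above that of LMN in IML of every animal.

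Most glutamate receptor probe sets lay below the median of their array. Only 4 of 19 lay above it on 28 or more of the 30 arrays: Grik5 162074_r_at, Grin2c 97726_at and Grid1 94619_at on 30, and Gria2 92947_s_at on 28. Grin2d 99382_at stood at the median, 0.04 above it on average and above it on 20 arrays. The remaining 14 were above it on 0 to 2 arrays. Averaged over all samples they ran from -4.17 relative to the array median (Gria2 162076_r_at) to -0.30 (Gria1 92944_at).

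**Figure D1:**
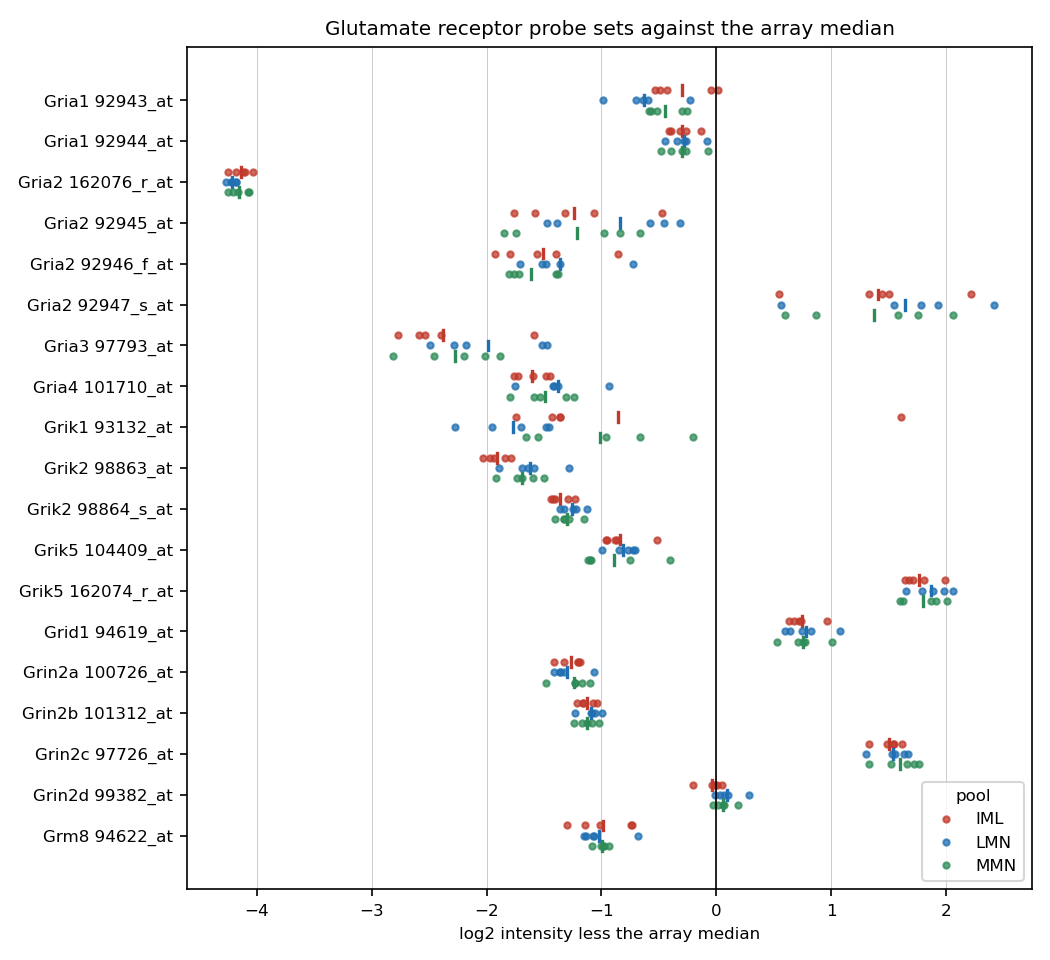
Level of each glutamate receptor probe set as log2 intensity less the median of its array (x axis). Points are the 5 animals of IML (red, top of each row), LMN (blue) and MMN (green), and vertical ticks are pool means; the Grik1 point at the right of its row is the IML sample of animal 4.

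Differences between pools were small for nearly all subunits. A probe set was called where the adjusted p of a linear model with pool and animal (limma, Benjamini-Hochberg over 12422 probe sets) was under 0.05. Between IML and somatic samples 1 of 19 was called, Gria1 92943_at, which was higher in IML. Over the whole array 5.52% of probe sets were called in this comparison, 3.44% higher and 2.09% lower. At an unadjusted p under 0.05 there were 4 of 19, against 20.7% of all probe sets. The median of the 19 differences was 0.00027, against -0.0076 over all probe sets, with 10 above 0 and 9 below.

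The comparisons share samples and are not independent. Between IML and LMN 2 of 19 were called, Gria1 92943_at higher and Grik2 98863_at lower in IML. Over the array 8.98% were called, 5.46% higher and 3.53% lower. At an unadjusted p under 0.05 there were 7 of 19, against 23.5% of all. Between IML and MMN none of the 19 was called by limma, where 0.346% of the array was, and 2 had an unadjusted p under 0.05, against 12.3% of all. Between LMN and MMN none was called, where 0.0564% of the array was, and 4 had an unadjusted p under 0.05, against 11.6% of all. With 1 or 2 calls of 19, the receptor probe sets were called at a rate near that of the array.

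**Figure D2:**
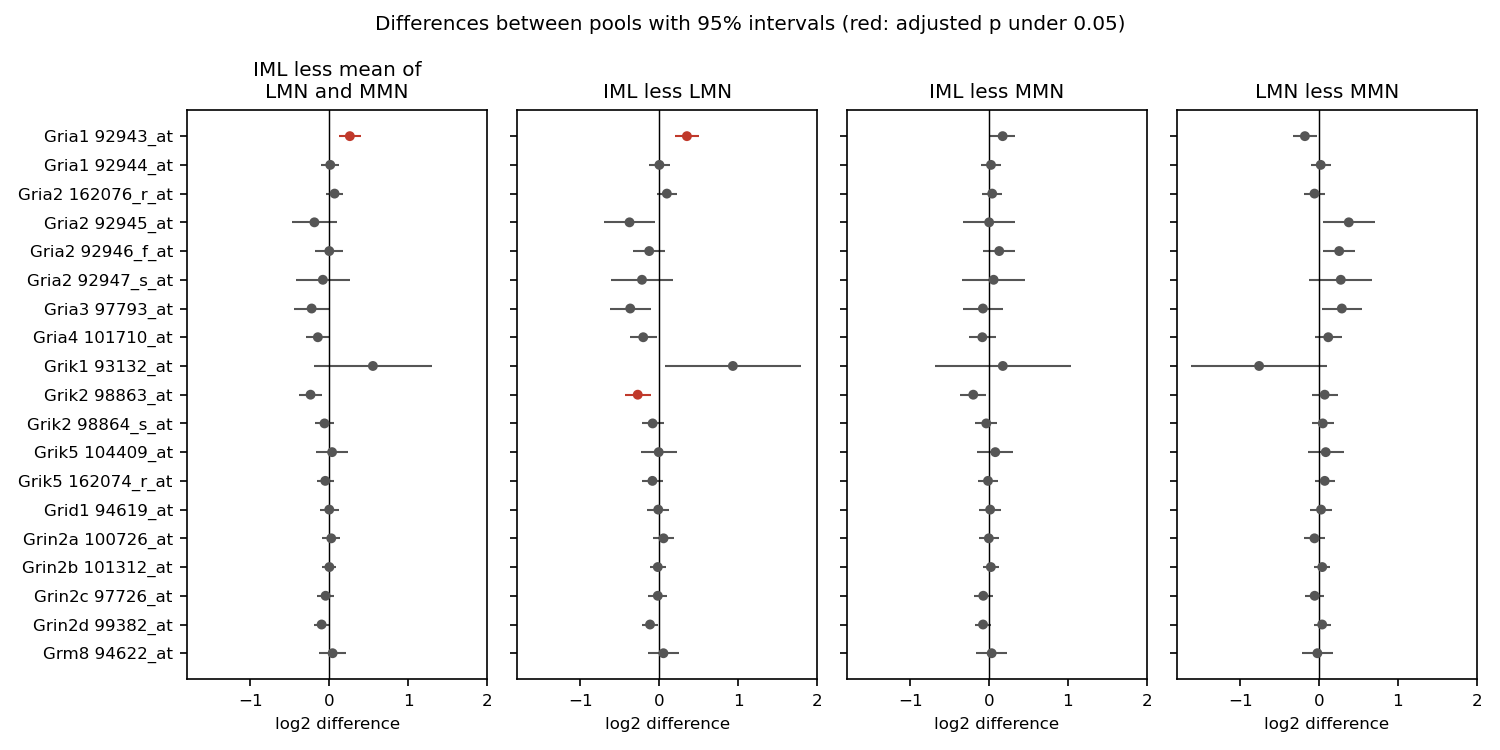
Log2 differences (x axes) of the 19 probe sets in 4 comparisons, with 95% intervals from the model; red marks an adjusted p under 0.05. Gria1 92943_at is red in the 2 leftmost panels (IML less the somatic mean, IML less LMN), Grik2 98863_at is red in IML less LMN, and Grik1 has the widest intervals.

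Gria1 encodes GluA1, an AMPA receptor subunit whose insertion at synapses depends on activity. Its probe set 92943_at read 7.13, 7.11, 6.62, 6.66 and 6.56 in the IML samples of animals 1 to 5. It read 6.54, 6.85, 6.36, 6.11 and 6.45 in LMN, and 6.84, 6.84, 6.53, 6.47 and 6.53 in MMN. The pools overlapped in raw values, but within each of the 5 animals IML was above both other pools. Relative to the array median the mean was -0.30 ± 0.26 in IML, against -0.63 ± 0.27 in LMN and -0.45 ± 0.16 in MMN (log2, SD, n = 5).

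IML exceeded the somatic samples by 0.26 ± 0.062 (SE; adjusted p = 0.0346 in limma) and LMN by 0.35 ± 0.071 (adjusted p = 0.0138). Gria1 92943_at was above the array median on only 1 of 30 arrays. Without detection calls the part of background in its signal is not known, so no fold is given. Against MMN the difference was 0.17 ± 0.071, with an adjusted p of 0.362. Between LMN and MMN it was -0.18 ± 0.071, with LMN below MMN in 4 of 5 animals and an adjusted p of 0.364. The difference between IML and somatic samples lost its call when any 1 of the 5 animals was left out (0.22 to 0.31; adjusted p of 0.0657 to 0.114) or the animal was made a random block (0.0532), and the difference between IML and LMN when animal 1 (0.29; adjusted p = 0.0562) or animal 4 (0.30; 0.0542) was. With the meningeal and fibroblast marker mean added to the model as a covariate, the 2 differences were 0.37 (adjusted p = 0.940) and 0.49 (0.957), the highest p-values among all alternatives tried; the lowest were 0.00724 and 0.00153, with all 30 arrays in the model. With this covariate 0 of 12422 probe sets were called in any comparison, so the loss was not particular to Gria1.

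The other Gria1 probe set, 92944_at, gave no such difference. It read 7.04, 6.84, 6.79, 6.69 and 6.68 in IML, 7.06, 6.73, 6.61, 6.83 and 6.80 in LMN, and 7.06, 6.71, 6.56, 6.80 and 6.81 in MMN. IML was above the somatic mean in 2 of 5 animals, and the difference was 0.01, with a 95% interval of -0.10 to 0.13 and an adjusted p of 0.935. After the mean of each animal was removed, the 2 Gria1 probe sets correlated with r = -0.04 over the 15 samples, which share the array's scaling. Between IML and LMN 92943_at moved 0.35 more than 92944_at, in the same direction in 5 of 5 animals. An exact two-sided sign-flip test over animals gave p = 0.0625, the smallest that 5 animals allow, and 0.225 after adjustment over the 36 pairs and comparisons of this kind. Which Gria1 transcript each probe set binds was not determined.

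**Figure D3:**
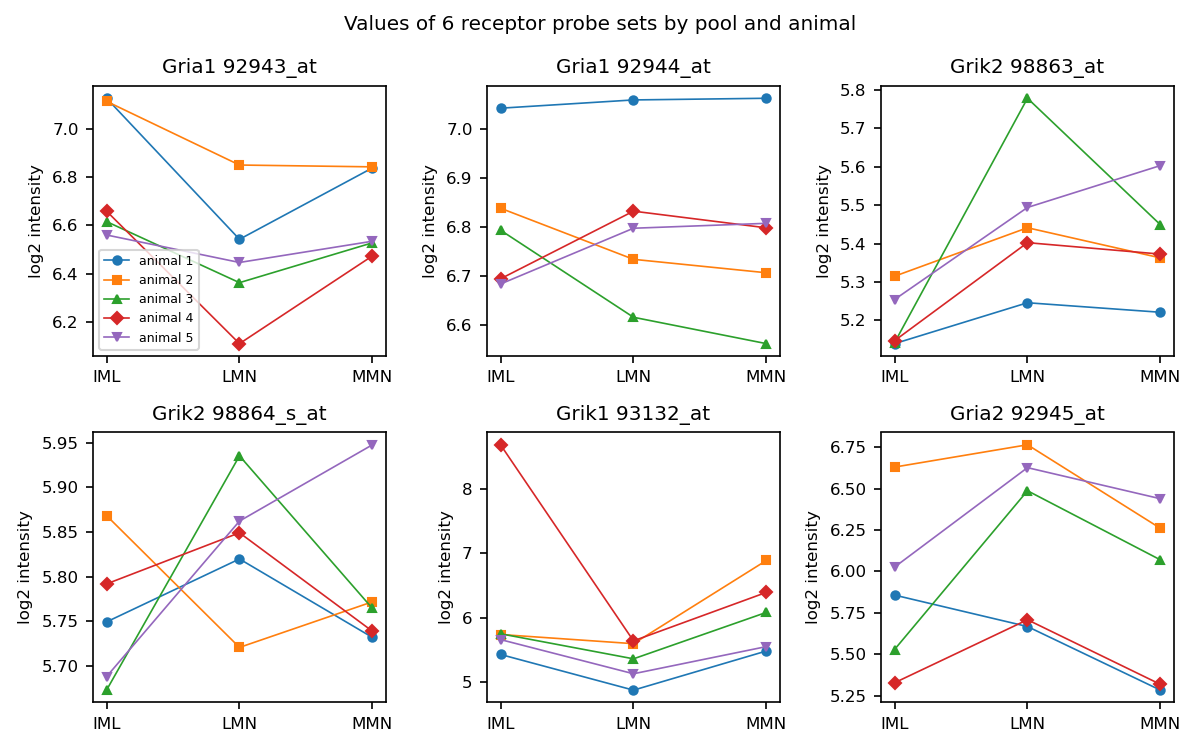
Log2 intensity (y axes, scaled per panel) of 6 receptor probe sets in IML, LMN and MMN, with a line for each of the 5 animals. Gria1 92943_at is highest in IML in every animal and Gria1 92944_at is not, Grik2 98863_at is lowest in IML in every animal, and Grik1 in the IML sample of animal 4 is far above all other samples.

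Gria2 encodes GluA2, the subunit whose RNA-edited form makes AMPA receptors nearly impermeable to calcium. It had 4 probe sets, at 4 very different brightnesses. Probe set 92947_s_at, the brightest AMPA receptor probe set, read 8.61, 9.31, 8.43, 7.63 and 8.59 in IML. It read 8.69, 9.49, 8.84, 7.65 and 9.01 in LMN, and 7.73, 8.85, 8.62, 7.93 and 9.16 in MMN. The pools overlapped over nearly their whole range. IML less somatic samples was -0.08 (95% interval -0.43 to 0.26) and LMN less MMN was 0.28 (-0.12 to 0.67), neither called. IML less LMN was -0.22 ± 0.18, above 0 in 0 of 5 animals, and also not called (adjusted p = 0.512 in limma).

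Probe set 92946_f_at read 5.24, 6.24, 5.55, 5.29 and 5.70 in IML, 5.66, 6.35, 5.54, 5.38 and 5.72 in LMN, and 5.42, 5.72, 5.28, 5.26 and 5.71 in MMN. LMN was above MMN in 5 of 5 animals, by 0.25 ± 0.094, which missed the threshold (adjusted p = 0.325). Probe set 92945_at also had LMN above MMN in 5 of 5 animals, by 0.19 to 0.50, with a mean of 0.38 ± 0.15 (adjusted p = 0.364). That difference had an adjusted p of 0.0488 when only LMN and MMN samples were in the model. For IML less LMN, 92945_at gave -0.38 ± 0.15 (adjusted p = 0.153 in limma) and 92946_f_at gave -0.13 ± 0.094 (0.457), each above 0 in 1 of 5 animals. Probe set 162076_r_at went the other way, by 0.10 ± 0.059 (0.354). The dimmest, 162076_r_at, stood at -4.17 relative to the array median and differed by 0.07 between IML and somatic samples, uncalled. Among the 4, only 92945_at and 92947_s_at correlated above 0.5 (r = 0.72 over 15 samples after removal of animal means). Letters before "at" in a probe set's name (f, r or s) mark sets that may also bind related transcripts or were designed under looser rules.

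Gria3 and Gria4 encode the remaining AMPA receptor subunits, GluA3 and GluA4, and neither was called. Gria3 97793_at was below LMN in IML in 5 of 5 animals, by -0.37 ± 0.12 (adjusted p = 0.0771), and LMN was above MMN in 5 of 5 animals, by 0.29 ± 0.12 (0.376). Gria4 101710_at differed by -0.20 ± 0.077 between IML and LMN (4 of 5 animals below; adjusted p = 0.137). Between IML and MMN the differences were -0.08 for Gria3 and -0.09 for Gria4. After removal of animal means the pair correlated with r = 0.81 over 15 samples, as a description.

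Kainate receptor subunits comprised GluK1 and GluK2, encoded by Grik1 and Grik2, and GluK5, encoded by Grik5, which forms channels only with a partner. Grik2 98863_at read 5.14, 5.31, 5.14, 5.15 and 5.25 in IML, 5.25, 5.44, 5.78, 5.40 and 5.49 in LMN, and 5.22, 5.36, 5.45, 5.37 and 5.60 in MMN. IML was the lowest of the 3 pools in each of the 5 animals, although the ranges of the pools overlapped. The mean was 5.20 ± 0.081 in IML, against 5.47 ± 0.19 in LMN and 5.40 ± 0.14 in MMN (SD, n = 5).

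IML was lower than LMN by -0.27 ± 0.075 (SE; adjusted p = 0.0461 in limma). At a mean of 5.36 over all samples this probe set was too dim to be told from background. The call was lost with values of the array floored at 32. All sample values of Grik2 98863_at lay above that floor (lowest 5.14 in log2), so this loss is no sign of its dimness. Against the somatic samples the difference was -0.24 ± 0.065, not called at an adjusted p of 0.0591, and against MMN it was -0.20 ± 0.075 (0.309). The difference from somatic samples was called with the animal as a random block (adjusted p = 0.0323), with arrays centred on their medians (0.0477) and with all 30 arrays (0.00718); over all alternatives its p ran up to 0.999. The call against LMN was lost when any 1 of the 5 animals was left out (-0.31 to -0.18; adjusted p of 0.0682 to 0.146). The LMN sample of animal 3 was the highest of all at 5.78, and without it the difference was -0.19 (adjusted p = 0.110). With the meningeal and fibroblast covariate the difference was 0.05 (adjusted p = 0.994), and over all alternatives the adjusted p ran from 0.00621 to 0.994; no probe set of the array was called under that model.

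The other Grik2 probe set, 98864_s_at, had differences of -0.06 from the somatic samples, -0.08 from LMN and -0.04 from MMN, none called. Its pool means were 5.75 ± 0.080 in IML, 5.84 ± 0.078 in LMN and 5.79 ± 0.089 in MMN. The 2 Grik2 probe sets correlated with r = 0.74 over 15 samples after removal of animal means, but the differences of 98863_at were lower in 5 of 5 animals, by -0.18 against somatic samples, -0.19 against LMN and -0.17 against MMN. The exact two-sided sign-flip test gave p = 0.0625 for each, the smallest possible, and 0.225 after adjustment over the 36. Both probe sets lay below the array median on all 30 arrays.

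Grik1, followed here because of the values seen in it, had the widest range of the 19 probe sets. Its probe set 93132_at read 5.43, 5.74, 5.75, 8.69 and 5.66 in the IML samples of animals 1 to 5. It read 4.87, 5.59, 5.36, 5.64 and 5.13 in LMN, and 5.48, 6.89, 6.08, 6.39 and 5.55 in MMN. The IML sample of animal 4 was far above the other 4, which averaged 5.64 ± 0.15 (SD, n = 4) and were too dim to be told from background, so no fold is given. Its 2 arrays read 8.50 and 8.88, so the value was present on both.

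No comparison of Grik1 was called with all 15 samples averaged over their arrays. IML less somatic samples was 0.55 ± 0.34 (adjusted p = 0.408), and 0.02 (0.946) without the IML sample of animal 4. IML less LMN was 0.94 ± 0.39, above 0 in 5 of 5 animals (adjusted p = 0.176), and 0.40 (0.154) without that sample. The difference from LMN was called with all 30 arrays and the sample as a random block (0.0138). Over all alternatives it ran from -0.96 to 2.42, and its adjusted p ran up to 0.957. Against somatic samples the difference was -0.87 with the meningeal and fibroblast covariate and 1.81 with the glial covariate, neither called. IML less MMN was 0.17 (0.912) and became -0.36 (0.344) without the IML sample of animal 4.

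In Grik1, LMN was also below MMN in 5 of 5 animals, with differences of -1.30 to -0.42 and a mean of -0.76 ± 0.39 (adjusted p = 0.488 with all samples in the model, and 0.124 without the IML sample of animal 4). With only LMN and MMN in the model the adjusted p was 0.0435.

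The IML sample of animal 4 stood apart in other genes as well. In it 29 of 12422 probe sets were at least 1 log2 unit above every other sample, and Grik1 was the 9th of them by that gap. Among the first were Fxyd2 (11.34 against at most 8.19 elsewhere), the sodium channel gene Scn10a (9.70 against 6.65), Nmb (9.18 against 6.37) and Avil (9.39 against 6.85), all known from dorsal root ganglion sensory neurons. Hoxd1 and Tac1 also ranked ahead of Grik1. So did Ly86 (9.56 against 7.25) and Slc7a7 (9.23 against 7.41), which were not on the sensory neuron list that follows. Of 20 sensory neuron genes listed after these values were seen, 10 were measured and 9 were highest in this sample, Scn9a being the exception. The mean of the 10 was 8.31 in it, against 5.87 to 6.27 in the other IML samples and 5.67 to 6.47 in the somatic samples. Since 7 of the 10 were at least 1 log2 unit above every other sample when the list was made, the count and the mean are a description and not a test. The share of all probe sets highest in this sample is not given here. The sample with the next highest mean, 6.47, was MMN of animal 2, which also had the next highest Grik1 value, 6.89. Below these samples the 2 orders parted. IML of animal 1 had a mean of 6.27 but a Grik1 value of 5.43, and IML of animal 3 had 6.21 and 5.75. MMN of animal 3 had the lowest mean, 5.67, with a Grik1 value of 6.08. The part of these transcripts in the Grik1 values was not tested. The IML sample of animal 3 stood apart too, with 63 such probe sets, and the other 13 samples had 0 to 4. Gria1 and Grik2 were not among the probe sets that set animal 4 apart: without its IML sample the differences from LMN were 0.33 (adjusted p = 0.0330) for Gria1 92943_at and -0.27 (0.0810) for Grik2 98863_at, and the call of Gria1 against somatic samples was lost (0.24; adjusted p = 0.0827).

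**Figure D4:**
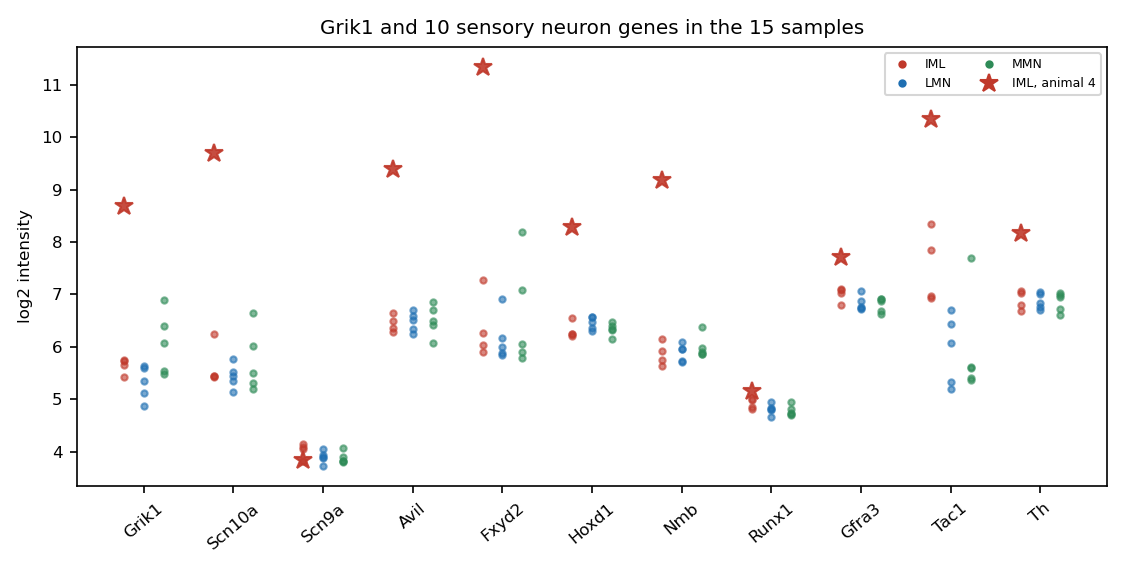
Log2 intensity (y axis) of Grik1 and of 10 sensory neuron genes in the 5 IML (red), 5 LMN (blue) and 5 MMN (green) samples, with the IML sample of animal 4 as a star. The star is highest for Grik1 and for 9 of the 10 genes, all but Scn9a; the list was made after these values were seen.

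Grik5 162074_r_at was the brightest kainate receptor probe set, 1.81 above the array median. It read 9.16, 8.74, 8.82, 8.76 and 8.90 in IML, 9.20, 8.73, 8.85, 9.08 and 8.97 in LMN, and 9.14, 8.70, 8.67, 8.97 and 8.97 in MMN. The pools overlapped fully, and IML less somatic samples was -0.05 (95% interval -0.16 to 0.06; adjusted p = 0.647). The second Grik5 probe set, 104409_at, stood at -0.85 relative to the median, with a difference of 0.04 (-0.16 to 0.24).

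Grid1 encodes GluD1, a delta receptor. Its probe set 94619_at read 8.14, 7.83, 7.82, 7.72 and 7.77 in IML, 8.22, 7.68, 7.70, 7.91 and 7.82 in LMN, and 8.14, 7.81, 7.57, 7.84 and 7.86 in MMN. Animal 1 was the highest animal in every pool, and the pools overlapped fully. The difference between IML and somatic samples was 0.00027, with a 95% interval of -0.12 to 0.12. Grid1 tracked Gria1 92944_at closely over the 15 samples (r = 0.97, and 0.83 after removal of animal means), as a description of values that share array scaling. The pair was picked for its high r. Grik5 162074_r_at also followed both (r = 0.88 with Grid1 and 0.83 with Gria1 92944_at, animal means kept). Gria2 92945_at ran the other way (-0.41 and -0.36).

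The NMDA receptor genes measured all encode GluN2 subunits, which bind glutamate and set the kinetics of the receptor. Grin2c 97726_at, the brightest, read 8.78, 8.43, 8.60, 8.62 and 8.64 in IML, 8.70, 8.38, 8.59, 8.77 and 8.72 in LMN, and 8.66, 8.43, 8.76, 8.83 and 8.76 in MMN. The pools overlapped and IML less somatic samples was -0.05 (95% interval -0.15 to 0.06). Grin2a and Grin2b stood at -1.27 and -1.12 relative to the array median and differed by 0.03 (-0.09 to 0.14) and 0.0018 (-0.09 to 0.09). Grin2d 99382_at was below the somatic mean in IML in 5 of 5 animals, but by only -0.10 ± 0.042 (adjusted p = 0.220). For all 4 genes the 95% intervals in this comparison lay between -0.19 and 0.14.

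Grm8 encodes mGlu8, a group III metabotropic receptor that couples to inhibitory G proteins and is mostly presynaptic. Its probe set 94622_at read 5.87, 6.35, 6.37, 5.94 and 6.08 in IML, 5.99, 6.39, 5.93, 6.03 and 6.00 in LMN, and 6.13, 6.12, 6.11, 5.98 and 6.12 in MMN. The MMN values lay within the range of both other pools, and IML less somatic samples was 0.04 (95% interval -0.12 to 0.21; adjusted p = 0.825).

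How far the arrays could resolve such differences varied between subunits. The SD between the 2 arrays of a sample was 0.53 for Gria2 92947_s_at and 0.51 for Gria2 92945_at, with gaps of up to 1.78 and 1.73. It was 0.087 to 0.11 for the NMDA receptor probe sets and 0.11 for Grid1. Since samples are means of 2 arrays, the technical SD of a sample of Gria2 92945_at was 0.36, beside an SD of 0.52 over animals within a pool. For Grik1 it was 0.14, beside 0.88 over animals.

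**Figure D5:**
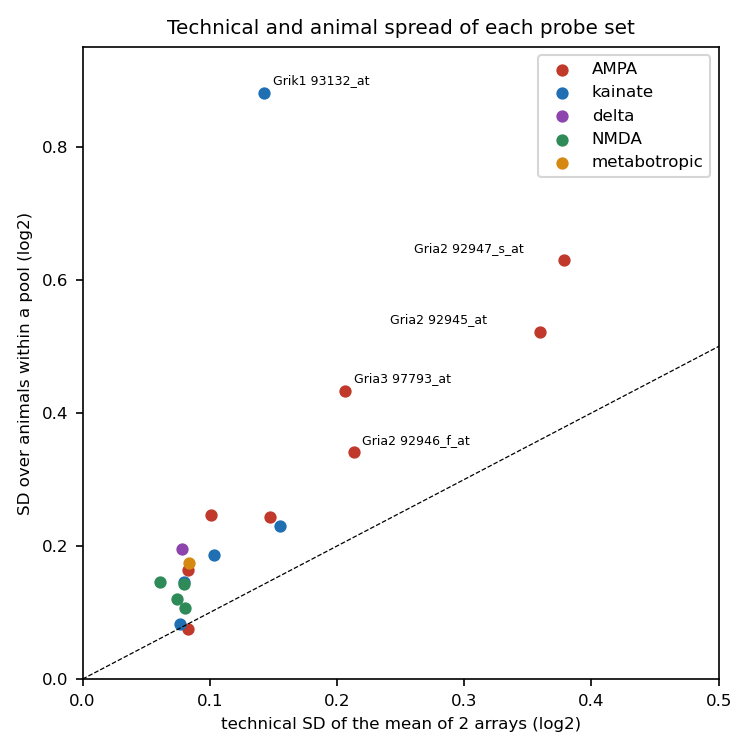
SD over animals within a pool (y axis) against the technical SD of a sample, that is of the mean of its 2 arrays (x axis), in log2 units, for the 19 probe sets coloured by receptor class; the dashed line marks equality. Gria2 92947_s_at and 92945_at lie furthest right, and Grik1 lies far above the line.

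For the 2 subunits with the smallest p between IML and somatic samples, the genes with the most similar values were sought among 4900 genes at or above the median brightness. By Pearson correlation over 15 samples after removal of animal means, Gria1 92943_at was most like Lasp1 (r = 0.92), Thra (0.89) and Wdr6 (0.88). Grik2 98863_at was most like Ryr2 (0.92), Syt3 (0.92) and Ccdc186 (0.89). Pool differences stayed in these values, and the genes are the highest of 4900. Between IML and somatic samples Lasp1, Thra and Wdr6 differed by 0.32, 0.23 and 0.77. Ryr2, Syt3 and Ccdc186 differed by -0.37, -0.33 and -0.39, and all but Thra were called. These r values therefore describe shared pool differences as well and are not a test of coexpression.

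Genes that act with glutamate receptors were examined as 6 lists, each gene by its brightest probe set. On that basis 4.00% of 8251 genes were called higher and 2.29% lower in IML than in somatic samples, and 6.30% and 3.84% in IML than in LMN. Of the auxiliary and scaffold proteins 15 of 41 were measured, 3 rose, 1 fell and 11 were not called in IML relative to somatic samples. Cacng2, which encodes the AMPA receptor auxiliary subunit stargazin, was at 8.17 in IML, 8.81 in LMN and 8.49 in MMN and fell by 0.47 ± 0.12 (0 of 5 animals higher; adjusted p = 0.0398). The scaffold genes Dlg1, whose product SAP97 binds GluA1, and Lin7c rose by 0.31 ± 0.075 and 0.38 ± 0.064, and Nptx1, a pentraxin that clusters AMPA receptors, rose by 0.35 ± 0.087 (5 of 5 animals each). The median difference over the 15 genes was -0.02. Against LMN, Cacng2 (-0.64) and Dlg4 (-0.27), which encodes PSD-95, were lower and Dlg1 (0.41) and Lin7c (0.36) higher.

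Among 13 measured effectors of metabotropic receptors, Gnai2 and Gnai3, which encode alpha subunits of inhibitory G proteins, rose by 0.70 ± 0.16 and 0.49 ± 0.11, and 11 were not called (list median 0.11). Among 12 genes of glutamate and D-serine supply and uptake, Slc1a1, the neuronal glutamate transporter EAAT3, fell by 0.54 ± 0.10 (0 of 5 animals higher; adjusted p = 0.0165) and 11 were not called (median -0.02). None of 15 postsynaptic kinase and phosphatase genes (median 0.03; 5 at an unadjusted p under 0.05) and none of 3 editing and splicing genes (median -0.06; 0 at that p) was called by limma. Of 5 trans-synaptic organisers (median 0.0022), Cbln1, which encodes the cerebellin that bridges presynaptic neurexins and delta receptors, was at 8.62 in IML, 8.84 in LMN and 9.75 in MMN. Cbln1 in IML was lower by 0.68 ± 0.14 than in somatic samples (adjusted p = 0.0184) and by 1.13 ± 0.16 than in MMN (0.0157). It was the only gene of these lists called against MMN. Against LMN it was not called lower, and MMN was the pool that stood apart. Efnb2, an ephrin, was higher in IML than in LMN by 0.66 ± 0.13 (adjusted p = 0.0128). Between LMN and MMN no gene of the 6 lists was called.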

How the data were processed

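The authors deposited array intensities on a linear scale, normalized with R-pack and turned back from logs, per the labels; what R-pack did is not stated in the sources used here. The 66 control probe sets were left out, log2 was taken without an offset, and the 2 arrays of a sample were averaged. Array medians ran from 131.69 to 145.908, and the number of arrays limits the precision. Two-sided tests used limma 3.58.1 in R 4.3.3, with pool and animal as fixed terms over 15 samples, eBayes, and Benjamini-Hochberg adjustment over 12422 probe sets. The labels state that each animal gave all 3 pools; same-animal samples deviated from pool means together in 15 of 15 pairs (r of 0.288 to 0.747).

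Gene symbols came from the platform annotation, updated through gene identifiers with the GRCm38.p6 assembly's table. Values in every sample were given for called members, the 2 smallest p in each comparison and the brightest of each class; those of Gria1 92944_at and Grik1 were added after they were seen. From each gene list the called genes were named. Members and lists were chosen with earlier results of these data known. Alternatives changed the block, arrays used, scaling, filter, floor, variance model, threshold, covariates and samples.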

Additional observations from a re-analysis of the deposited data

Results flagged for a closer look

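In each pool the highest or lowest of the 5 animals was compared with the nearest of the others, and 7 of 57 groups passed a 95% limit for a single distant sample. Chance passes about 1 in 20 groups. The widest gap was that of Grik1 in the IML sample of animal 4, at 8.69 against 5.75 for the next. Grm8 was lowest in the MMN sample of animal 4, at 5.98 against 6.11, and highest in the LMN sample of animal 2, at 6.39 against 6.03. Grik2 98864_s_at was highest in the MMN sample of animal 5, at 5.95 against 5.77. Grin2a was highest in the LMN sample of animal 1, at 6.08 against 5.77. Gria3 was highest in the IML sample of animal 2, at 5.51 against 4.69. Grid1 was highest in the IML sample of animal 1, at 8.14 against 7.83. None of these probe sets was called in any of the 4 comparisons.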

How the results depend on the processing

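The number of receptor probe sets called between IML and somatic samples, 1 of 19, became 2 with all 30 arrays or at a threshold of 0.1. It became 0 without the replicate block, with either technical set alone, quantile normalization, a floor of 32, gene averages, the meningeal or glial covariate, and without the IML sample of animal 4 or the LMN sample of animal 3 (both chosen after seeing the data); leaving out each animal gave 0 to 0. With a random animal block or arrays centred on their medians the 1 called was Grik2 98863_at, not Gria1 92943_at. Between IML and LMN, 2 became 3 with all 30 arrays (adding Grik1, adjusted p = 0.0138) and at a threshold of 0.1 (adding Gria3, 0.0771). It became 1 with technical set 1, a floor of 32, gene averages, or without the LMN sample of animal 2 or 3 or the IML sample of animal 4. It became 0 without the block, with technical set 2, only IML and LMN, or either covariate, and 0 to 1 when each animal was left out. Restricting to probe sets at or above the median gave 0 in both, since it removed Gria1 92943_at and Grik2 98863_at. The Grik2 98863_at difference from LMN changed sign, to 0.046, with the meningeal covariate; the cause was not tested. Between IML and MMN every alternative gave 0. Between LMN and MMN, 0 became 2 with only those pools in the model. The share of all probe sets called under that model is not given here, so whether these receptors stood out cannot be said. Without the replicate block Gria1 92943_at had adjusted p of 0.502 and 0.315, and all probe sets called fell to 46, 135, 4 and 0, against 686, 1116, 43 and 7. The whole-array counts ran from 0 to 1619, 0 to 1840, 0 to 464 and 0 to 241. With 5 animals, absent detection calls and dim probe sets, small differences were not resolvable.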
